A study of Rattus norvegicus with 2 samples.

Results

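The genes described here encode the AP-1 transcription factors of the Fos and Jun families (Fos, Fosb, Fosl1, Fosl2, Jun, Junb and Jund), the early growth response factors Egr1 and Egr2, and Atf3. They were found by the gene symbol that the platform annotation gives to each probe. Of the 10 genes, 9 had a named probe, among 15610 named genes in all, and Fosb had none and is not analysed here. RNA of 2 rat lung samples, untreated cells taken without culture, was labelled with Cy3, and each was hybridised on a two-colour Agilent array. The other channel of both arrays held Cy5-labelled RNA called mix1, in which cultured rat bone marrow cells were mixed with cultured rat primary ear fibroblasts, each grown in medium with fetal bovine serum. The labels give no strain, age or sex, and do not say whether the lung samples came from separate animals, so p-values cover only the spread between the 2 samples, and that spread may be technical.

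AP-1 is a pair of proteins joined by leucine zippers: Jun proteins pair with each other or with Fos proteins, which do not form stable pairs among themselves. Fos, Fosb, Jun, Junb, Egr1, Egr2 and Atf3 are immediate early genes, transcribed within minutes of a growth factor, serum or stress signal without new protein synthesis. Signals reach them through MAP kinases, through serum response factor bound to CArG boxes, and through CREB bound to cAMP response elements. The EGR proteins bind GC-rich sites with zinc fingers. In lung, these factors are studied in injury, inflammation and vessel growth.

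RefSeq's promoter table, on build GRCr8, holds 6 of the 9 measured genes, and Fos, Jun and Atf3 are not among them. The windows below carry motif matches of Egr1, Egr2, Fosl1 and Jund, whose ratios are described further on. Junb and Fosl2 had matches too, and their windows are not printed. Positions count back from the annotated start, and each sequence reads 5′ to 3′ on the strand of the gene. In Egr1 and Egr2 the capitals mark CArG boxes and the cAMP response element core, which reads TGACG and here appears as its reverse complement. Fosl1 has capitals for that core, and Jund for the full element and for EGR sites.
Egr1, chr18:26736928-26737027, plus strand: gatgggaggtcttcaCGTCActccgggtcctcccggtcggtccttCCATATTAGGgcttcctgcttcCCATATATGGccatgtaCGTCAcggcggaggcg
Egr2, chr20:21054492-21054591, minus strand: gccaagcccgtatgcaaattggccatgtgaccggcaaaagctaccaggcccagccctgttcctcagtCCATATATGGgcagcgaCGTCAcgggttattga
Fosl1, chr1:212183735-212183834, plus strand: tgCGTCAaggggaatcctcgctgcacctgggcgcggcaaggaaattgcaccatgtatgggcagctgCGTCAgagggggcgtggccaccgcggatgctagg
Jund, chr16:18769792-18770001, minus strand: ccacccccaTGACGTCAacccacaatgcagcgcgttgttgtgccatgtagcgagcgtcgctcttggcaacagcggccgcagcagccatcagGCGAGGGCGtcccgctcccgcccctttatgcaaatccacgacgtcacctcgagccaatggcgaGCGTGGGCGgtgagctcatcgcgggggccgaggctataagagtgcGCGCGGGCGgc

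Egr1 held 2 CArG boxes, starting at positions -105 and -83, and Egr2 held 1, also starting at -83. In both genes a core of the cAMP response element started at position -66. A CArG box was found in 1.50% of all 33469 promoters of the table, searched on both strands over the same 250 bases, and in none of the other 4 members. Jund held 1 full cAMP response element, TGACGTCA, which was found in 1.59% of all promoters, and its match also contains 2 overlapping cores. Jund had 3 matches to the EGR site, spelled GCGNGGGCG, and Fosl2 had 1, against a match in 4.29% of all promoters. The core alone occurred in 18.2% of all promoters and in 5 of the 6 members, with Fosl2 the exception. The AP-1 site, spelled TGANTCA, occurred in 6.34% of all promoters and in none of the 6 windows. A match describes letters in this window and does not show that a factor binds there.

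**Figure D1:**
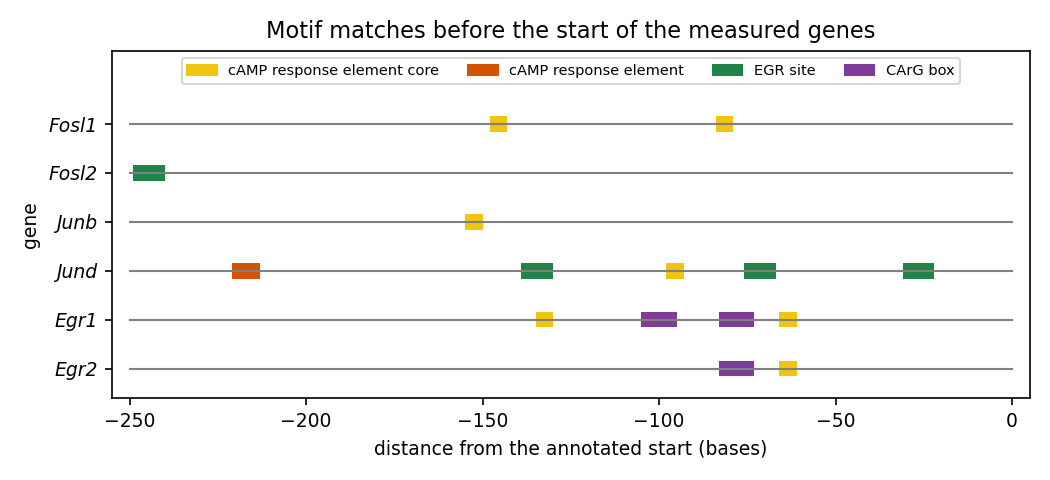
Motif matches in the 250 bases before the annotated start of 6 measured genes, with the distance from the start in bases on the horizontal axis and a row for each gene. The CArG box at -83 and the core of the cAMP response element at -66 lie at the same positions in Egr1 and Egr2, and the 3 EGR sites of one gene are those of Jund.

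All 9 measured genes were lower in lung than in mix1. The values are log2 ratios of lung over mix1, 1 per probe and array. That direction is likely and not stated outright: it rests on the wording of the series and on 6 lung epithelium genes, whose ratios had a median of 5.64, and were the ratios the other way round, lower would read higher throughout. In limma's test of the ratios against 0, each of the 9 passed a Benjamini-Hochberg adjusted p of 0.05 over all genes, and so did 49.7% of all genes as lower and 32.9% as higher in lung. Of the 9, 5 were at least 2-fold lower in both arrays, against 15.8% of all genes. The median of the 9 was -1.83, against -0.22 for all genes. That median is the value of Jund, a mean of 2 probes that disagree. With 1 of them alone the median would be that of Egr2, -0.83, and with the other that of Junb, -2.51. Mix1 enters as 1 control RNA whose own spread is not measured, and no array has swapped dyes, so a dye effect and the difference between the RNAs cannot be told apart.

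Within the Fos family, Fosl1 and Fos were far lower in lung and Fosl2 slightly so. Fosl1, which encodes Fra-1, a later and more lasting AP-1 subunit than Fos, had log2 ratios of -6.25 in replicate 1 and -5.51 in replicate 2. Both arrays placed it beyond every other gene of the group, although they disagreed more on it than on any other of the 9. The mean of -5.88 ± 0.52 (SD, n = 2) is 58.8-fold lower in lung, with a limma adjusted p of 0.00259 and a 95% interval from -6.82 to -4.94. Its rank was 43 of 15610 genes counted from the lowest ratio, and only 3.40% of genes had a larger SD between arrays.

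Fos, the prototype immediate early gene and partner of Jun, lay at -3.49 and -3.45. The arrays nearly coincided, and the mean of -3.47 ± 0.02 (SD, n = 2) is 11.1-fold lower in lung (limma adjusted p 0.00117). Of all genes, 1.57% had a lower ratio. Fosl2, which encodes Fra-2, had ratios of -0.74 and -0.65, a mean of -0.69 ± 0.06 that is 1.62-fold lower in lung (limma adjusted p 0.00418). Fosl2 was thus called, but 27.2% of all genes had a lower ratio.

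The Jun family spread over a similar order, with Junb lowest and Jun near the middle of all genes. Junb, a Jun protein often found to restrain Jun itself, had log2 ratios of -2.53 and -2.48. Its mean of -2.51 ± 0.04 (SD, n = 2) is 5.68-fold lower in lung (limma adjusted p 0.00117), and 3.50% of all genes lay lower. Jun, the strongest activator of the family, had ratios of -0.33 in both arrays, 1.26-fold lower in lung (limma adjusted p 0.00792). Its call depended on centring: with each array's median subtracted, its mean was -0.14 and its limma adjusted p 0.0923.

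Jund, the Jun protein that resting cells keep at a steady level, was the only measured member with over 1 probe, and its 2 probes disagreed in size. The first lay at -0.71 and -0.75 in the arrays and the second at -2.93 and -2.91. Each probe was nearly the same in both arrays, so the gap of 2.19 between them is far larger than the spread between replicates. Both probes are called lower when limma is fitted to single probes, with adjusted p 0.00257 for the first and 0.00110 for the second. The first is 1.66-fold and the second 7.59-fold lower in lung. The mean of both, -1.83 ± 0.01 (SD, n = 2), is therefore a value that neither probe shows, and its SD covers the arrays and not the probes. A gap at least as large was found in 10.3% of the 3768 genes with over 1 probe, where the median gap was 0.72. With the first probe alone, Jund would not count among the 5 genes that were at least 2-fold lower.

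**Figure D2:**
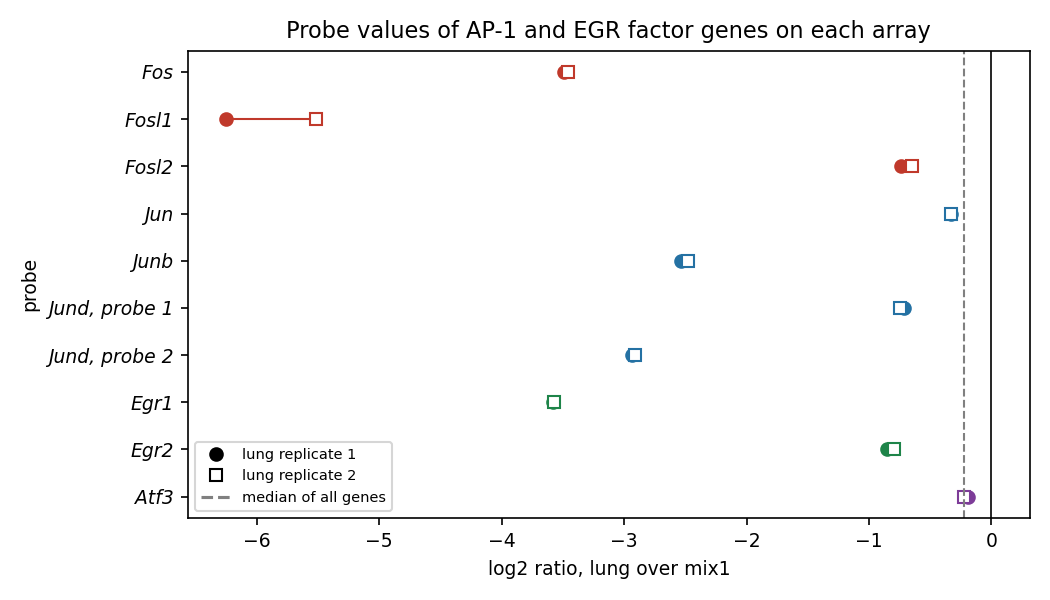
Log2 ratio of lung over mix1 for each of the 10 probes, with lung replicate 1 as a filled circle and lung replicate 2 as an open square, coloured by family, and the median of all genes as a dashed line. The 2 arrays nearly coincide except for Fosl1, at -6.25 and -5.51, and the 2 probes of Jund stand 2.19 apart.

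The early growth response factors differed in size. Egr1, an immediate early factor of growth factor signalling that activates its own repressor Nab2, had log2 ratios of -3.58 in both arrays. Its mean of -3.58 ± 0.0025 (SD, n = 2) is 11.9-fold lower in lung (limma adjusted p 0.00117), and 1.44% of all genes lay lower. Egr2, best known for its part in myelination by Schwann cells and in the hindbrain, lay at -0.85 and -0.80, a mean of -0.83 ± 0.04 that is 1.77-fold lower in lung (limma adjusted p 0.00256). The mean ratios of the 2 genes stood 2.75 apart on the log2 scale. Each gene rests on 1 probe, and the SDs of 0.0025 and 0.04 cover the arrays and not the probes. In genes with over 1 probe, the median gap between probes was 0.72, and it was 2.19 for Jund. Whether the difference holds for other probes was not tested. The promoters of Egr1 and Egr2 share 1 CArG box and 1 core at the positions above, and Egr1 has 2 of each in all. Any link between these motifs and the ratios was not tested.

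Atf3, a stress-induced factor that pairs with Jun proteins and often represses, had log2 ratios of -0.19 and -0.23, with the smallest difference from mix1 in the group. Its mean of -0.21 ± 0.02 (SD, n = 2) is 1.16-fold lower in lung (limma adjusted p 0.0210). That mean lies at the median of all genes, with 51.6% of genes lower. With array medians subtracted it was -0.02 and was not called (limma adjusted p 0.720). In that setting 7 of the 9 genes were called lower, against 38.0% of all genes, and Jun and Atf3 were the exceptions.

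From the lowest ratio upward the order was Fosl1, Egr1, Fos, Junb, Jund, Egr2, Fosl2, Jun and Atf3, and it was the same in both arrays. The 2 arrays' values of neighbouring genes did not overlap in any of the 8 neighbouring pairs. The limma 95% intervals overlapped for Egr1 and Fos, 0.11 apart, for Egr2 and Fosl2, 0.13 apart, and for Jun and Atf3, 0.12 apart. Overlap of intervals is not a test of a difference within an array, and the differences between these genes were not tested. The gap from Fosl1 to Egr1 was 2.67 in replicate 1 and 1.94 in replicate 2. The place of Jund depends on its probes. By mean, the first would put it between Egr2 and Fosl2 and the second between Fos and Junb. In replicate 1 the first probe lay above Fosl2, at -0.71 against -0.74, so with it the order would differ between arrays. The other measured genes have 1 probe each. Over all genes with more than 1 probe, the median gap between probes was 0.72. Whether the order holds for other probes of these genes was not tested. The order and its gaps compare ratios, and the arrays do not say which gene has more RNA in either sample.

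**Figure D3:**
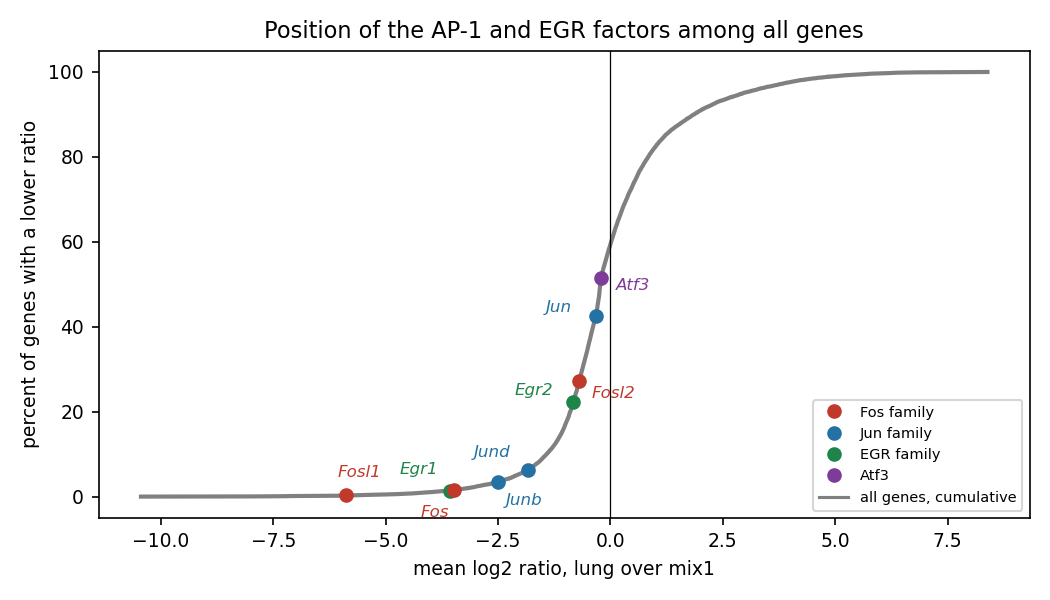
Percent of all 15610 genes with a lower ratio (vertical axis) against the mean log2 ratio of lung over mix1 (horizontal axis), with the grey line for all genes and coloured points for the 9 measured genes. Fosl1, Egr1, Fos, Junb and Jund lie in the lower tail of the curve, while Jun and Atf3 lie near its middle.

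**Figure D4:**
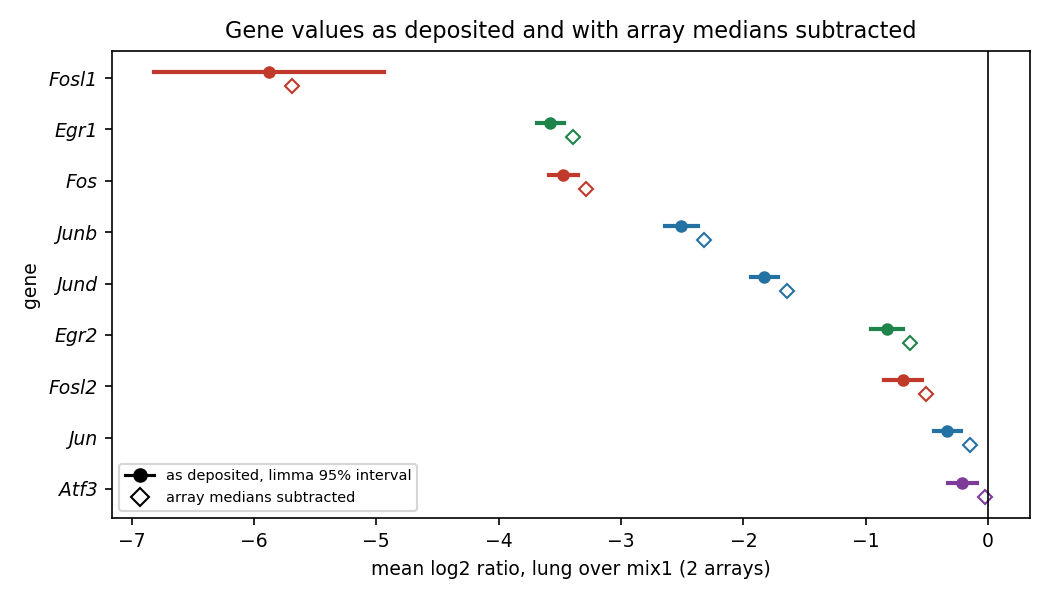
Mean log2 ratio of lung over mix1 over 2 arrays for each gene, as deposited (filled circles with limma's 95% interval) and with array medians subtracted (open diamonds). Subtracting the medians moves each gene by the same 0.19, which leaves Fosl1 at -5.69 and brings Atf3 to -0.02.

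Of the direct partners of these factors, Nab2 and Jdp2 were called lower in lung, and Nab1 and Srf were not called. Nab2, the corepressor that EGR proteins both bind and activate, had log2 ratios of -2.92 in both arrays and was called lower (limma adjusted p 0.00117). Its relative Nab1 lay at 0.00094 and -0.19 and was not called (limma adjusted p 0.312). Its 2 probes had means of 0.11 and -0.30, and in the fit to single probes the second was called lower (limma adjusted p 0.0114) and the first was not (limma adjusted p 0.516), so its direction is not settled. Jdp2, a repressor that pairs with Jun proteins, lay at -0.74 and -0.83, a mean of -0.78 ± 0.06 (SD, n = 2) that was called lower (limma adjusted p 0.00362). Serum response factor, Srf, lay at -0.34 and -0.77 and was not called (limma adjusted p 0.0592), and its 3 probes had means of 0.35, -0.32 and -1.69, so its direction is not settled either.

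The list of serum response factor, its partners and the cofactors includes Srf, Nab1 and Nab2. It had 4 of 9 measured genes lower and 1 higher in lung, against 49.7% and 32.9% of all genes. Elk1 and Elk3, partners of serum response factor that ERK phosphorylates, lay at -0.88 and -0.57, and Mrtfa, its actin-sensing coactivator, at -0.55. The coactivator Ep300, which acetylates histones, was higher at 0.84. Of the kinases of the ERK, JNK and p38 cascades, 9 of 18 were lower and 6 higher, which is close to the 49.7% and 32.9% of all genes, and 6 were lower and 8 higher with array medians subtracted. Mapk7 (ERK5, -1.29), the JNK gene Mapk9 (-0.76), the JNK kinase Map2k4 (-0.71) and the ERK kinase Map2k2 (-0.65) were lower, whereas the ribosomal S6 kinase Rps6ka1 (2.41) and the p38 kinase Map2k6 (2.33) were higher. Of the feedback inhibitors of these kinases, 7 of 14 were lower and 3 higher, again near the shares of all genes, and 5 and 4 with array medians subtracted. Dusp1, a MAP kinase phosphatase that is itself an immediate early gene, lay at -1.79, followed by Spred1 at -1.39, Dusp8 at -1.21 and Dusp5 at -0.82, while Dusp2 (1.54) and the ERK phosphatase Dusp6 (1.07) were higher.

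Other immediate early genes were mostly lower in lung as well, with 18 of 23 lower and 5 higher, against 49.7% and 32.9% of all genes. Their median was -0.98, against -0.22 for all genes. The lowest were the inducible cyclooxygenase gene Ptgs2 at -4.42 ± 0.23 (SD, n = 2), Arc at -3.85 ± 0.12, the matricellular gene Ccn2 at -3.33 ± 0.03 and Ier3 at -2.82 ± 0.02. Klf10, a TGF-beta-induced zinc finger gene, was higher at 1.99 ± 0.04, and so was Zfp36, which destabilises cytokine mRNAs, at 0.83 ± 0.06. The other 3 higher genes lay between 0.18 and 0.44. With array medians subtracted, 15 were lower and 5 higher.

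The other leucine zipper factors, relatives of AP-1 from the ATF, CREB, MAF, C/EBP and BATF families, had 13 of 27 genes lower and 12 higher (11 and 13 with array medians subtracted), against the 49.7% and 32.9% of all genes. Nfil3 was lowest at -2.17 ± 0.02 (SD, n = 2), followed by Atf5 at -1.83 ± 0.04, Maf at -1.59 ± 0.04 and Creb3 at -1.04 ± 0.01. Batf2, an interferon-induced factor, was highest at 3.79 ± 0.19, and Nfe2, a factor of the platelet and red cell lineages, lay at 3.54 ± 0.08. The list's median was -0.24, near that of all genes.

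Genes studied as targets of these factors were divided, and their counts stand beside 49.7% lower and 32.9% higher among all genes. Of 19 genes with AP-1 sites, 15 were lower and 2 higher, with a median of -2.32 (14 and 4 with array medians subtracted). The protease gene Mmp3 lay at -10.44 ± 0.64 (SD, n = 2), the bone and inflammation glycoprotein gene Spp1 at -8.69 ± 0.01, the monocyte chemokine Ccl2 at -6.92 ± 0.04 and the elastase gene Mmp12 at -6.38 ± 0.02. The gelatinase gene Mmp9 was higher at 2.62 ± 0.08, and so was Ezr, which links membrane to actin, at 1.91 ± 0.04. Of 9 genes studied as EGR1 targets, 6 were lower and 3 higher, the latter near the share of all genes, with a median of -1.51. Igf2 (-3.50 ± 0.0033), Nab2, Fgf2 (-2.48 ± 0.16) and Tgfb1 (-1.70 ± 0.00021) were the lowest, and Vegfa (2.20 ± 0.03) and the adhesion molecule gene Icam1 (1.75 ± 0.01) were higher. Tgfb1 is counted in both lists, and Nab2 also among the cofactors. Of 5 myelin genes studied with EGR2, 2 were lower and 2 higher, from Mbp at -0.84 and Gjb1 at -0.37 to Pmp22 at 0.96 and Prx at 2.87.

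In the integrated stress response, of which Atf3 is an output, 10 of 11 genes were lower and 1 was not called, with a median of -1.63, against 49.7% lower and a median of -0.22 for all genes. Chac1, which degrades glutathione, lay at -3.85 ± 0.20 (SD, n = 2), Ddit4 at -1.93 ± 0.06, Atf5 at -1.83 ± 0.04 and asparagine synthetase, Asns, at -1.74 ± 0.05. Atf4, Atf5 and Ddit3 are also counted among the leucine zipper factors. The exception, Atf4, had a mean of 0.06 that was not called (limma adjusted p 0.188) and was called higher with array medians subtracted, at 0.24. Of 12 heat shock genes, 10 were lower and 2 were not called, with a median of -0.53. Most of these differences were small: 3 of the 12 were at least 2-fold lower in both arrays, and 8 were called lower with array medians subtracted, where Hspa8 (0.08) and Dnaja1 (0.13) lay above 0 and were not called. The inducible chaperones Hspa1a at -2.46 ± 0.08 and Hspa1b at -1.14 ± 0.04 were among the lowest, with Hspb8 at -2.19 ± 0.02 and the mitochondrial chaperonin Hspd1 at -0.88 ± 0.01. Hspa1a and Hspa1b are near-identical copies whose probes may not tell them apart.

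**Figure D5:**
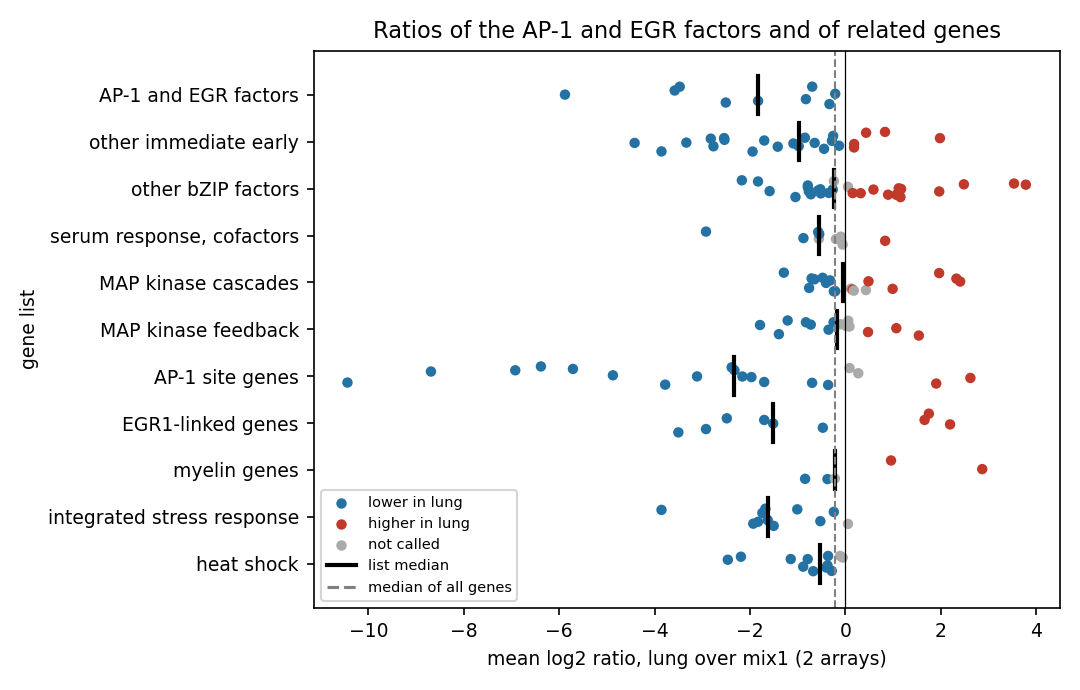
Mean log2 ratio of lung over mix1 (horizontal axis) for each gene of the AP-1 and EGR group and of 10 related lists, with colour for the limma call, black bars for list medians and a dashed line for the median of all genes. All points of the first row lie below 0, while the other leucine zipper factors and the kinases lie on both sides.

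Markers of other cells and of proliferation moved in the same comparison, in which 49.7% of all genes were called lower and 32.9% higher. Of the fibroblast markers, all 10 were lower in lung, with a median of -5.57 and Col1a1 lowest at -7.25, followed by Col1a2 (-7.18), Fap (-7.14) and Lum (-6.87). Of 9 proliferation markers, 8 were lower, led by Cdk1 at -3.42, Ccnb1 at -3.07, Plk1 at -2.99 and Birc5 at -2.85, with a median of -2.77. All 8 endothelial markers were higher, with a median of 4.19, led by Kdr (6.04), Cldn5 (5.03), Vwf (4.63) and Tek (4.31), and so were 8 of 9 leukocyte markers (median 2.35), led by Cd3g (6.18), Lyz2 (4.61), Cd3e (4.07) and Cd79b (3.37). The likely direction of the ratios rests partly on the lung epithelium genes, so their sign is not a separate result. They were Sftpc at 7.02, Sftpa1 at 6.11, Sftpb at 5.70, Sftpd at 5.58, Scgb1a1 at 4.91 and Ager at 3.94. The part of these markers in the ratios of the AP-1 and EGR genes was not tested. In bulk RNA, fewer cells of a type and less RNA per cell cannot be told apart, and a ratio gives no level of a marker in either sample.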

How the data were processed

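The authors' deposited values, 1 per probe and array for 40012 probes, were read as log2 ratios of 1 channel over the other, since their range of -11.74 to 9.09 is too wide for base 10 on a scanner. No source states the base, and folds rest on base 2. Agilent Feature Extraction is named per the submitters' processing notes. Its version, and its handling of background and dyes, are not stated in any source read here. Probe medians were -0.16 and -0.21, so 0 is not the median probe and what the ratios were centred on is unknown. The annotation names 20417 probes, and symbols were updated through RefSeq accessions or symbols of GRCr8. Probes of a gene were averaged, giving 15610 genes. All genes were fitted in R 4.3.3 by limma 3.58.1, using an intercept in lmFit, moderation by eBayes and p-values adjusted by Benjamini-Hochberg across the whole table (threshold 0.05), with 1 residual and 1.28 prior degrees of freedom. In all, 82.7% of genes passed. The procedure was tested on simulated data, with 50 changed genes at each size. It called 48.0% of them at a log2 change of 1, 82.0% at 2, 90.0% at 4 and 96.0% at 6. Far fewer genes were changed there than were called here, so these shares need not hold for these data. The number of arrays, 2, limits the precision.

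Members, lists and tests were chosen with earlier results of these data known. Apart from the 9 measured genes, their partners Nab1, Nab2, Srf and Jdp2 and the 6 lung epithelium genes, up to 4 called genes in the main direction of a list and up to 2 against it are named, by size. Other genes enter counts only, and Atf4, Ddit3, Hspa8, Dnaja1, Crebbp and Elk4 were named after their values were seen. The alternatives were array medians subtracted, arrays scaled to one spread, robust eBayes, treat against a 2-fold change, a middle probe for each gene (the lower where there are 2), single probes, an adjusted p under 0.01 and each array alone.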

Additional observations from a re-analysis of the deposited data

How the results depend on the processing

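No value of the 9 measured genes turned its sign under any alternative run, but most of these runs could not have turned one. Robust eBayes, treat and an adjusted p under 0.01 leave the ratios as they are, and scaling only multiplies them. The middle probe changes the value of Jund alone. With arrays scaled to one spread, robust eBayes or the median probe of a gene, all 9 calls were kept. Array medians subtracted ended the calls of Jun and Atf3, and an adjusted p under 0.01 ended that of Atf3. Treat against a 2-fold change left 5 of the 9 lower, without Fosl2, Egr2, Jun and Atf3, and called 1881 genes lower and 2143 higher in all. Under treat, 3 of 27 other leucine zipper factors, 10 of 23 other immediate early genes and 1 of 14 feedback inhibitors were called lower. So were 1 of 18 kinases, 1 of 9 in the list of serum response factor, its partners and cofactors, and 2 of 12 heat shock genes. Of 5 myelin genes, 0 were called lower (0 also at an unadjusted p under 0.05). Still lower were 13 of 19 genes with AP-1 sites, 5 of 9 studied as EGR1 targets and 7 of 11 of the integrated stress response. These counts stand beside 1881 of all 15610 genes. At an adjusted p under 0.01, 4 of 14 feedback inhibitors were lower, against 5539 of all 15610 genes. The median probe of a gene called 8200 of all 15610 genes lower. In the list of serum response factor, its partners and cofactors it called 8 of the 9 genes lower. This added Srf, Crebbp, Nab1 and Elk4, whose probes disagree, and the setting put Jund at -2.92. For a gene with 2 probes this setting takes the lower, so Nab1, Elk4 and Jund could only move down. Array medians subtracted left 1 myelin gene lower and lowered the share of calls that are lower among all genes to 49.7%, against 60.2% as deposited. Each array alone gives values without a test, from -6.25 to -0.19 without replicate 2 and from -5.51 to -0.23 without replicate 1, and no counts of calls. No paired analysis was possible because there is 1 group of samples. Without scanner intensities, how far each channel stood above background is not known, which limits large ratios such as that of Fosl1 most.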
